A study of Mus musculus with 27 samples.

Results

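The 9 myelin genes Mbp, Mog, Mag, Mobp, Cnp, Opalin, Ermn, Cldn11 and Mal were taken by symbol from the 31053 genes of the count tables, and all 9 were found. The list was chosen with earlier results of these data known. They were measured by droplet-based single-nucleus RNA-seq of hippocampus from 27 mice, 1 library a mouse. The mice were littermates from a cross of the P301S line, in which the mouse Prnp promoter drives human tau carrying the P301S mutation, with mice lacking Cgas, the gene of the cytosolic DNA sensor cGAS. The groups without the transgene were Cgas+/+ (5 mice), Cgas+/- (2 mice) and Cgas-/- (2 mice). The groups with it were P301S Cgas+/+, P301S Cgas+/- and P301S Cgas-/- (6 mice each). The 4 larger groups held both sexes, and the 2-mouse groups were male. The mice were adults, and the stated ages differ within a window of 8 to 10 months.

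Myelin is the stack of membrane that oligodendrocytes wrap around axons. Oligodendrocyte progenitors divide, pass through a committed precursor stage and mature into myelinating cells, and genes of myelin proteins are switched on along the way by transcription factors that include SOX10, NKX6-2 and MYRF. Compact myelin is held together from the cytoplasmic side by Mbp and Mobp, small basic proteins. Mal, a proteolipid of membrane rafts, and Cldn11, the claudin of myelin's tight junctions, lie in the membrane. Mog and Mag are immunoglobulin-type surface proteins, Mog on the outermost layer and Mag facing the axon. Opalin is a membrane glycoprotein of inner and paranodal loops, Cnp an enzyme of the non-compact cytoplasmic channels, and Ermn a protein that binds actin late in differentiation.

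After filtering, 204852 nuclei were kept and clustered without the 9 genes, and clusters were named from markers that include none of them. Of the kept nuclei, 43455 were oligodendrocyte-like, at 755 to 3257 a library, 6552 were oligodendrocyte progenitor-like and 905 committed precursor-like. Oligodendrocyte-like nuclei carried 1367113 to 5933472 UMIs (unique molecular identifiers, counts of distinct captured RNA molecules) a library. Each pair of libraries shared 8 to 48 cell barcodes, at most 0.570% of the smaller library. Mb21d1, the older symbol of Cgas, was not lowest in the libraries labelled Cgas-/- in microglia-like nuclei. Without the transgene it stood at 32.2 to 39.0 CPM (UMIs per 1e6 UMIs of the class) in Cgas+/+, 15.9 to 22.4 CPM in Cgas+/- and 21.6 to 33.1 CPM in Cgas-/- libraries. With it the ranges were 26.3 to 56.5 CPM in P301S Cgas+/+, 28.1 to 59.5 CPM in P301S Cgas+/- and 40.1 to 58.5 CPM in P301S Cgas-/- libraries. UMIs outside the deleted stretch do not test the deletion, and genotypes below are those of the labels.

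The upstream sequences of the 8 genes searched are shown because the genes separate along the lineage below, with Mag, Mog, Cnp and Cldn11 well above the progenitor level in the earlier precursors and Mobp, Opalin, Ermn and Mal near it. Mbp, which also rose in the earlier precursors, was not searched because the RefSeq promoter set used here held no stretch for it. Each is the stretch before the RefSeq start in GRCm38.p6, 5′ to 3′ on the strand of the gene. Capitals mark SOX-type letters (ACAAAG or ACAATG) and MYRF-type letters (CTGGCAC or CTGGTAC) on either strand, and the Cldn11 and Mal stretches hold neither.
Mag, chr7:30914923-30915172, minus strand: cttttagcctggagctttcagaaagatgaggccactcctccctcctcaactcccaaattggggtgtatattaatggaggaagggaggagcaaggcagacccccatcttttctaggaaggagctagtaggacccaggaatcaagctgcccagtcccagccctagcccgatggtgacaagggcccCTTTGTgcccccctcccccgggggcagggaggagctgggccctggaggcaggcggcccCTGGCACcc
Mog, chr17:37023399-37023648, minus strand: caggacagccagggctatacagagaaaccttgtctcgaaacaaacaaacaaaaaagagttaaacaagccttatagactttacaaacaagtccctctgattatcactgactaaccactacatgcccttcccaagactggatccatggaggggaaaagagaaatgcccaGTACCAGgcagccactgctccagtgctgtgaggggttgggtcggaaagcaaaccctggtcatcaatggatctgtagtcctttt
Cnp, chr11:100574689-100574903, plus strand: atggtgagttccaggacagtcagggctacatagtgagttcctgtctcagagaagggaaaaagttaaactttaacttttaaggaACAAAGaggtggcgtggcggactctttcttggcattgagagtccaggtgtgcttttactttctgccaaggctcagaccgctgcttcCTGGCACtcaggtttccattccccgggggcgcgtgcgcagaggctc
Cldn11, chr3:31149670-31149919, plus strand: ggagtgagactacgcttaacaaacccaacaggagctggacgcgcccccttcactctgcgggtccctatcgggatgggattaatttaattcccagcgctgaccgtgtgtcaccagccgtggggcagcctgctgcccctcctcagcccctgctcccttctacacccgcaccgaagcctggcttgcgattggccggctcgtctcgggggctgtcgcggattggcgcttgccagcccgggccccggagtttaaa
Mobp, chr9:120149492-120149706, plus strand: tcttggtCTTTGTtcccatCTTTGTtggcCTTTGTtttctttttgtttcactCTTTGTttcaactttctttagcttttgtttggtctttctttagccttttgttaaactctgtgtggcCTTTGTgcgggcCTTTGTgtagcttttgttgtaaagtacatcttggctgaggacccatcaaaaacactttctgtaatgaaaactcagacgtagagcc
Opalin, chr19:41077114-41077363, minus strand: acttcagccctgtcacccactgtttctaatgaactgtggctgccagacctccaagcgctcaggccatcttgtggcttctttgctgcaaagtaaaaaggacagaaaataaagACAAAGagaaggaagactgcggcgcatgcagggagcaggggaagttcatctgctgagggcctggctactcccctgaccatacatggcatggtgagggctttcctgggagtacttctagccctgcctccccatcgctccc
Ermn, chr2:58052865-58053114, minus strand: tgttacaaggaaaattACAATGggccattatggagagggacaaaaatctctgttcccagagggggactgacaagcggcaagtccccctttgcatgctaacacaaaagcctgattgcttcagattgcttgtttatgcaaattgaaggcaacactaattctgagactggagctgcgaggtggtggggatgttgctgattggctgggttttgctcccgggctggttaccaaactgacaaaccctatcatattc
Mal, chr2:127656696-127656945, minus strand: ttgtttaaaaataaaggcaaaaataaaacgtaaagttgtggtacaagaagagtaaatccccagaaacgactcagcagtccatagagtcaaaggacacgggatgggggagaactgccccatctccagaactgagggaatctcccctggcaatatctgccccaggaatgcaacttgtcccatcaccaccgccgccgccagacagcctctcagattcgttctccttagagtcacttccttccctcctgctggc

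SOX-type letters were found before 5 of the 8 members searched (Mag, Mobp, Cnp, Opalin and Ermn) and in 25.2% of 32817 promoters of 250 bases. The reverse of ACAAAG also contains CTTTG, the core of TCF/LEF motifs. MYRF-type letters were found before 3 of the 8 (Mag, Mog and Cnp) and in 5.92% of promoters. The Mobp stretch held 6 SOX-type matches, all on the strand opposite the gene, and 1 of the 32817 promoters, its own, held that many. The Mobp and Cnp stretches are 215 bases long because 35 bases that the annotation places in an exon were cut off.

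All 9 genes were low in progenitor-like nuclei and high in oligodendrocyte-like nuclei, but they did not rise at the same stage. The committed precursor-like nuclei formed one subcluster of 385 nuclei, led by Kif19a and Bmp4, and another of 520 nuclei, led by Prom1 and Ctps. The Bmp4 subcluster was named from 11 precursor markers and the Ctps subcluster from 6. The precursor name is less certain for the Ctps subcluster, which held most myelin genes above their mature level. In the Bmp4 subcluster 5 genes already stood well above the progenitor level. Mbp was at 1941 CPM there, pooled over nuclei, against 53.5 CPM in progenitor-like nuclei, 36.2-fold higher. Cldn11 was 19.99-fold higher (141 against 7.07 CPM), Mag 18.0-fold (178 against 9.92 CPM), Mog 9.07-fold (70.1 against 7.73 CPM) and Cnp 5.89-fold (70.1 against 11.9 CPM).

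The other 4 genes were still near their progenitor level in the Bmp4 subcluster. Mobp stood at 13.5 CPM (26 UMIs) against 7.69 CPM, Opalin at 6.75 CPM (13 UMIs) against 2.60 CPM, Ermn at 2.60 CPM (5 UMIs) against 1.57 CPM, and Mal at 4.15 CPM (8 UMIs) against 5.17 CPM. These few UMIs set the precision, and the median library had none for any of the 4. In the Ctps subcluster they were much higher, Mobp at 2735 CPM, Opalin at 680 CPM, Mal at 616 CPM and Ermn at 96.6 CPM. The rise from the Bmp4 to the Ctps subcluster was 203-fold for Mobp, 148-fold for Mal, 101-fold for Opalin and 37.2-fold for Ermn, and between 3.39-fold (Cnp) and 14.95-fold (Mog) for the earlier 5. Subclusters came from the same nuclei, so these folds are a description without a test.

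**Figure D1:**
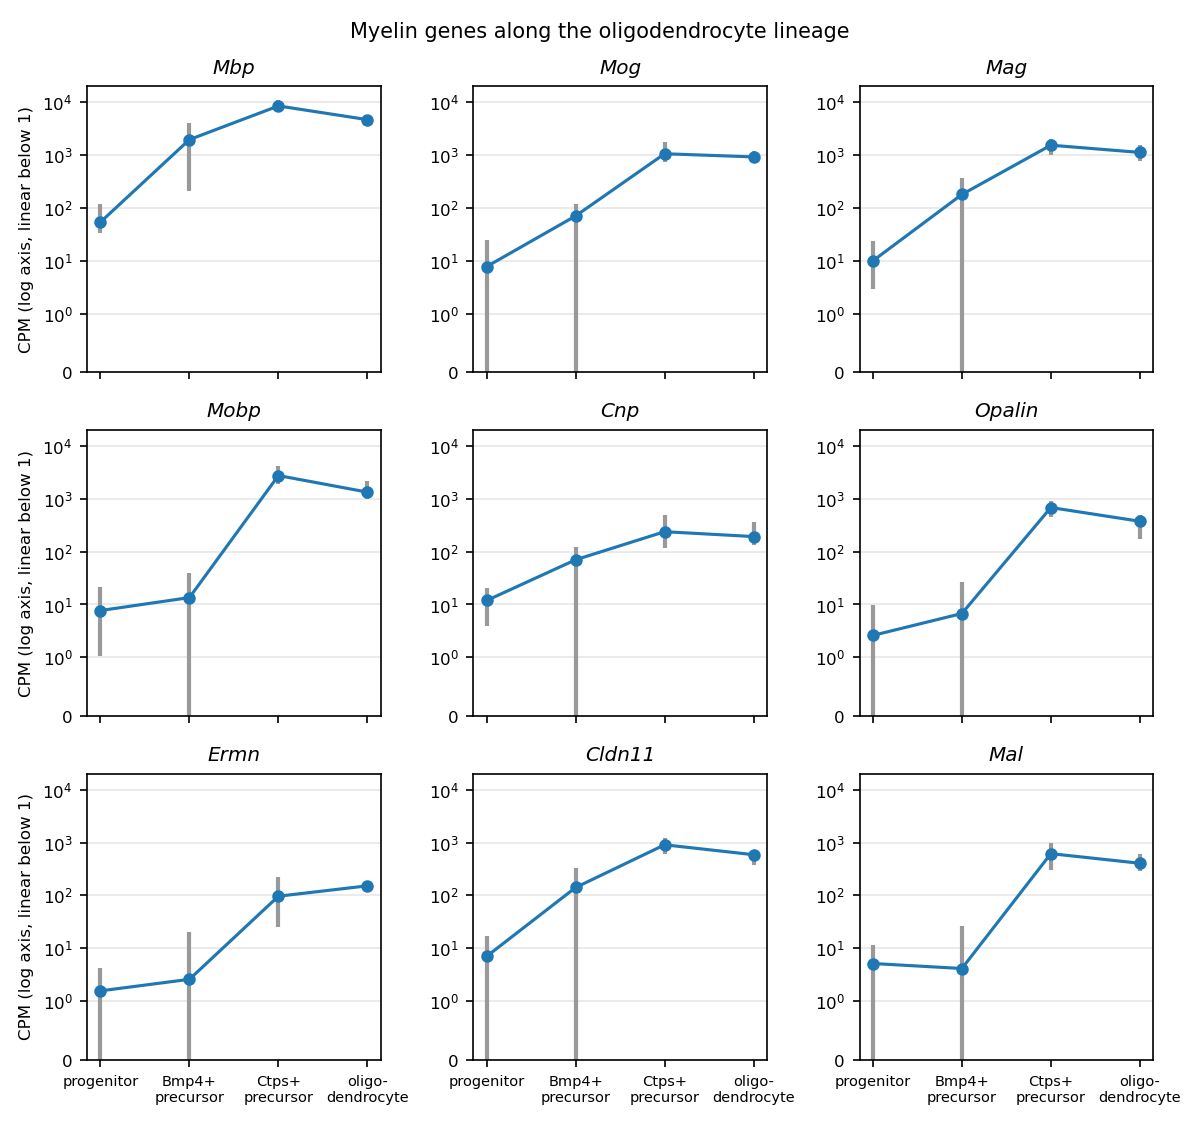
CPM (log axis, linear below 1) of each gene in progenitor-like, Bmp4-led precursor-like, Ctps-led precursor-like and oligodendrocyte-like nuclei, with points pooled over nuclei and grey bars from the lowest to the highest library (27 libraries for the first and last stage, 17 and 21 for the precursors). Mbp, Mog, Mag, Cnp and Cldn11 climb from the first stage to the second, whereas Mobp, Opalin, Ermn and Mal climb from the second to the third.

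Pooled over nuclei, the Ctps subcluster held more of most myelin genes than mature oligodendrocyte-like nuclei did. Mobp stood there at 206% of the oligodendrocyte-like level, Opalin and Mbp each at 182%, Cldn11 at 154%, Mal at 152%, Mag at 137%, Cnp at 124% and Mog at 115%. Ermn was the exception, at 63.7%, and was the 1 gene whose pooled level was highest in oligodendrocyte-like nuclei (152 CPM). Over libraries, both precursor subclusters summed ran from 25.9 to 178% for Mog and from 14.6 to 176% for Cnp. The smaller excesses are therefore a description only. Among the 5 mature subclusters Opalin varied most, from 212 CPM in one led by Anln and Apod to 509 CPM in one led by 7630403G23Rik, a 2.41-fold range. Mal had its lowest and highest level in the same subclusters (309 and 506 CPM, 1.64-fold). Cnp ranged 1.53-fold and the other 6 genes 1.08-fold to 1.35-fold. The subcluster led by 7630403G23Rik and Il33 was lowest for Mog, Mobp and Ermn. Of oligodendrocyte-like nuclei it held 4.78 to 6.71% in Cgas+/+, 6.64 to 9.50% in Cgas+/- and 6.12 to 7.16% in Cgas-/- libraries. It held 8.37 to 35.9% in P301S Cgas+/+, 3.73 to 48.4% in P301S Cgas+/- and 10.5 to 46.5% in P301S Cgas-/- libraries. The part of such shares in the comparisons below was not tested.

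In oligodendrocyte-like nuclei Mbp was the most abundant transcript by CPM, with 4543 ± 454 CPM (SD, n = 27 libraries). Because reads in introns were counted, levels of different genes are also given per kilobase of gene. Whether UMIs grow with gene length in these libraries was not tested, and the order below holds for that scale only. On that scale Mog (73.6 ± 11.2 CPM per kb) and Mag (68.8 ± 12.5) came first, and their library ranges overlapped. Mobp (42.5 ± 8.12), Mbp (41.1 ± 4.11) and Cldn11 (40.2 ± 5.97 CPM per kb) followed within 1 SD of each other. The place of Mbp rests on the full annotated length of its locus, 110 kb, which also produces the golli transcripts described below. A shorter transcribed length would raise its value per kb. Opalin (23.8 ± 3.91), Ermn (19.3 ± 2.44), Mal (17.4 ± 3.35) and Cnp (11.4 ± 3.54 CPM per kb) were lowest. The steps from Mag to Mobp, Cldn11 to Opalin, Opalin to Ermn and Mal to Cnp were larger than the SD of either gene, and the other neighbours in this order did not differ beyond their SDs. Mobp overlaps Gm38642 on its own strand, and Mbp (Rpl21-ps8), Mog (Gm22388), Cnp (Dnajc7) and Ermn (Galnt5) overlap genes on the opposite strand, so UMIs near those overlaps are less certain.

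The genes also differed in how steady they were among libraries. The coefficient of variation over the 27 libraries was 9.99% for Mbp, 12.7% for Ermn, 14.9% for Cldn11, 15.2% for Mog and 16.4% for Opalin. It was 18.2% for Mag, 19.1% for Mobp, 19.3% for Mal and 31.0% for Cnp. Thinned to 1000 UMIs a nucleus, which left out 1024 shallower nuclei, a median of 97.8% of oligodendrocyte-like nuclei a library had an Mbp UMI, against 69.0% for Mobp, 57.5% for Mog, 32.5% for Mal, 15.6% for Cnp and 12.9% for Ermn (99.5%, 86.9%, 77.2%, 50.3%, 28.5% and 23.9% without thinning).

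Neither the tau transgene nor loss of Cgas was accompanied by a change of any myelin gene that passed the test in oligodendrocyte-like nuclei. Counts were summed per mouse and class and fitted with edgeR's quasi-likelihood test with sex as a covariate over the 23 mice of the 4 larger groups. P-values were adjusted by Benjamini-Hochberg over the 12558 genes tested. Libraries of one group came from different mice. In P301S Cgas+/+ against Cgas+/+ mice 0 of 9 genes passed (0 also at an unadjusted p under 0.05 and by DESeq2), where 0.00796% of all genes did. The log2 fold changes ran from -0.20 (Cnp) to 0.25 (Cldn11) with a median of 0.06, beside a median of -0.0004 over all genes, and 6 of 9 lay above 0. Of these, Mag, Mobp and Opalin each fell below 0 when a particular P301S Cgas+/+ library was left out.

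Cldn11 came nearest to a change with the transgene. It stood at 503, 598, 593, 614 and 383 CPM in the 5 Cgas+/+ libraries. In P301S Cgas+/+ libraries it ran from 532 to 729 CPM with a median of 632 CPM. The groups overlapped, with 3 Cgas+/+ libraries inside the P301S range and the other two below it. The log2 fold change was 0.25 (SE 0.12, 95% interval -0.01 to 0.51, adjusted p = 0.782).

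Mbp, the gene with the most UMIs, differed by 0.09 on the log2 scale with the transgene (SE 0.12, 95% interval -0.15 to 0.33). It was at 3902, 5034, 4577, 4590 and 4284 CPM in Cgas+/+ libraries and at 3693 to 5138 CPM (median 4867 CPM) in P301S Cgas+/+ libraries. The second range enclosed the first. Of the surface and membrane genes, Mog differed by -0.12 (SE 0.12), Mag by 0.06 (SE 0.15), Mal by -0.15 (SE 0.13) and Opalin by 0.07 (SE 0.18). Mobp differed by 0.06 (SE 0.16), Ermn by 0.13 (SE 0.12) and Cnp by -0.20 (SE 0.20).

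Deletion of Cgas in P301S mice gave the same count, 0 of 9 by edgeR and by DESeq2 (0 unadjusted), with 0% of all 12558 genes called. Cnp had the largest estimate. In P301S Cgas+/+ libraries it ran from 135 to 260 CPM (median 157 CPM) and in P301S Cgas-/- libraries from 152 to 313 CPM (median 237 CPM). The ranges overlapped, but 3 P301S Cgas-/- libraries lay above the whole P301S Cgas+/+ range. The log2 fold change was 0.39 (SE 0.19, 95% interval -0.01 to 0.78, adjusted p = 0.9999).

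For the other genes the deletion estimates were 0.16 for Mal (SE 0.12), -0.14 for Cldn11 (SE 0.12), 0.11 for Mog (SE 0.12), 0.06 for Mag (SE 0.14), -0.06 for Mbp (SE 0.11), 0.05 for Ermn (SE 0.11), -0.05 for Mobp (SE 0.15) and 0.04 for Opalin (SE 0.17). Their median was 0.05, beside -0.0002 over all genes. In P301S Cgas+/- against P301S Cgas+/+ mice 0 of 9 genes passed by either tool (0 unadjusted, 0% of all genes), with estimates from -0.14 (Opalin) to 0.10 (Mog). Both Cgas comparisons and the tau comparison share the P301S Cgas+/+ libraries, so their signs are not independent.

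**Figure D2:**
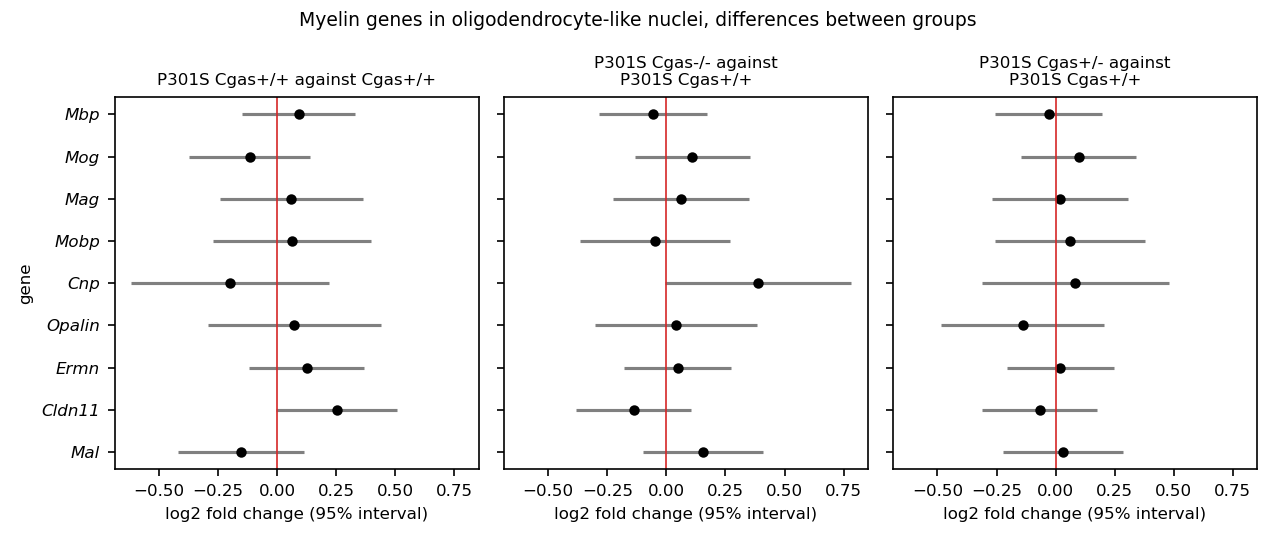
Log2 fold change of each gene in oligodendrocyte-like nuclei with its 95% interval, from the edgeR fit over 23 mice, for P301S Cgas+/+ against Cgas+/+, P301S Cgas-/- against P301S Cgas+/+ and P301S Cgas+/- against P301S Cgas+/+. Every interval crosses 0, with Cldn11 in the first panel and Cnp in the second nearest to its edge.

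Using all 27 mice, the 3 P301S groups were set against the 3 groups without the transgene. Estimates were above 0 for 8 of 9 genes, with a median of 0.11 beside 0.01 over all genes, and 0 of 9 passed with edgeR or DESeq2 while 0.242% of 12792 genes did. Cldn11 (0.23, SE 0.10, unadjusted p = 0.0238, adjusted p = 0.269) and Ermn (0.18, SE 0.08, unadjusted p = 0.0457, adjusted p = 0.345) were the 2 genes with an unadjusted p under 0.05 in this edgeR fit, beside 14.0% of all genes. Both were called when all lineage nuclei were summed, a sum that mixes stages and is described at the end. Without the transgene, Cgas-/- against Cgas+/+ mice also gave 0 of 9 (0 unadjusted, 0% of all genes), with estimates from -0.17 (Mobp) to 0.08 (Opalin). The difference between the deletion effects with and without P301S passed for 0 of 9 (0 unadjusted, 0% of all genes), the largest being Cnp at 0.45 (SE 0.34) and Mal at 0.33 (SE 0.23). The Cgas-/- arm of that test holds 2 mice.

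**Figure D3:**
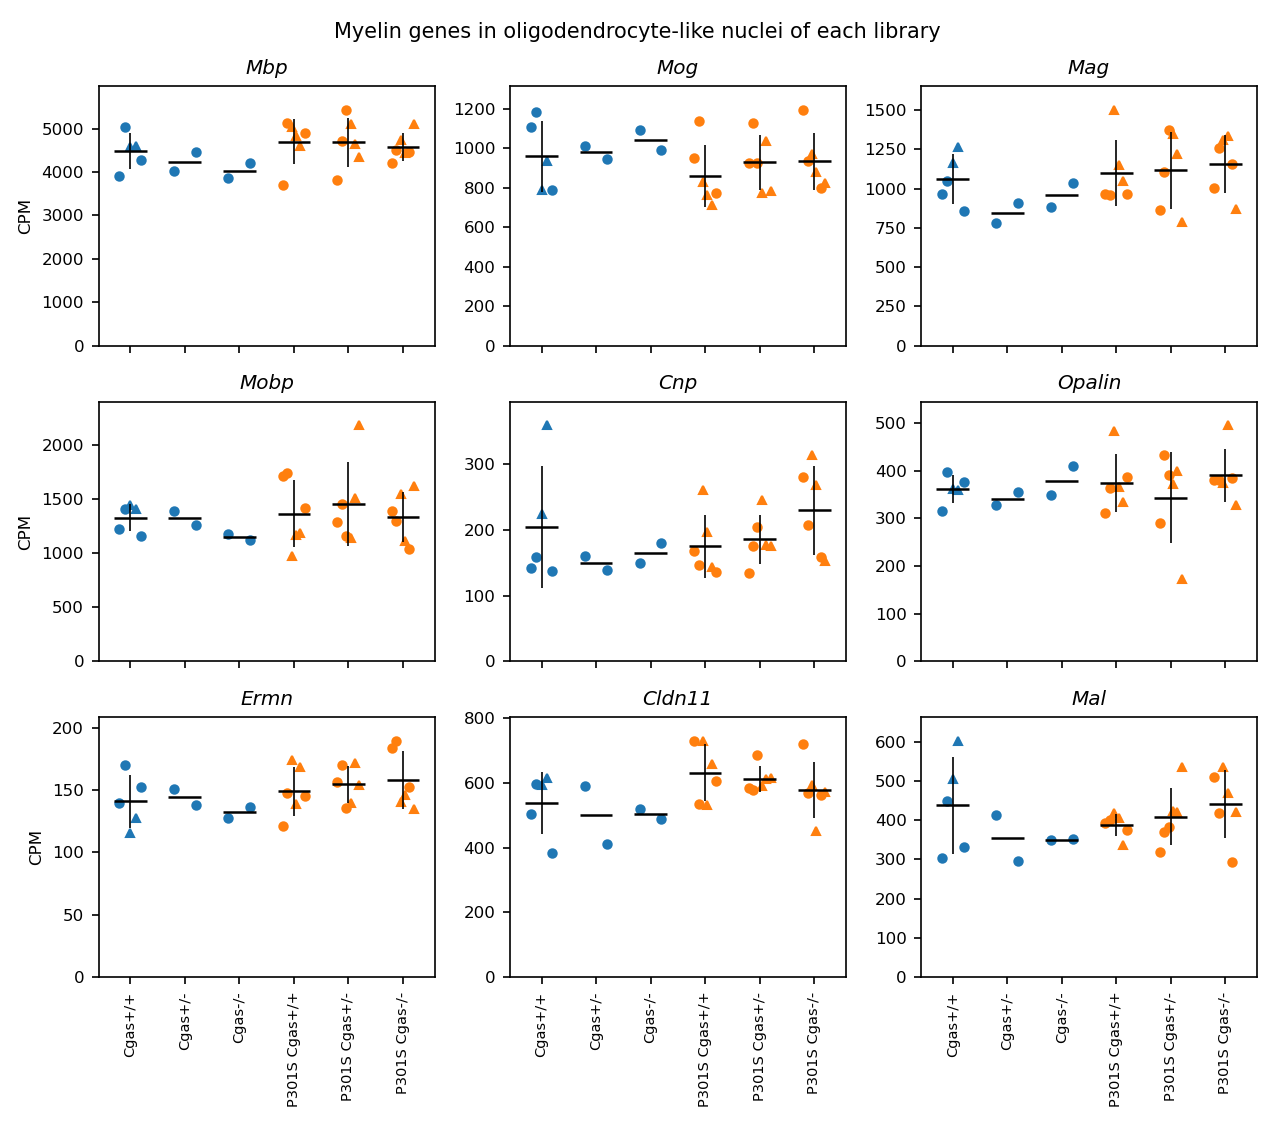
CPM of each gene in oligodendrocyte-like nuclei, 1 point a library (circles male, triangles female, blue without and orange with P301S), with the group mean as a line and SD as a bar in groups of 5 or 6. In every panel the points of the P301S groups and of the Cgas+/+ group cover overlapping ranges, and the single highest Mobp point, 2180 CPM, and lowest Opalin point, 174 CPM, belong to the same P301S Cgas+/- library.

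The estimates for Mal, Cnp and Mog were larger between the sexes than in the tau, deletion or heterozygous comparison, though none passed. In the 23-mouse edgeR fit 0 of 9 genes were called between females and males (3 at an unadjusted p under 0.05, beside 15.5% of all genes), while 1.81% of all genes were. Mal ran from 336 to 601 CPM in the 11 females (median 422 CPM). In the 12 males processed with Cell Ranger 3.0.2, per the file headers, it ran from 295 to 510 CPM (median 381 CPM), and in the 4 males processed with 3.1.0, as all females were, from 294 to 382 CPM (median 354 CPM). The ranges overlapped, and the fitted difference was 0.31 (SE 0.09, adjusted p = 0.0700). Cnp was 0.45 higher in females (SE 0.14, adjusted p = 0.0915), at a median of 224 CPM against 160 and 148 CPM in the sets of males. Both estimates were computed without the 2-mouse groups.

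Mog lay higher in males of software version 3.0.2 than in males of version 3.1.0. It was at 1049 ± 100 CPM in males of version 3.0.2 (SD, n = 12), at 821 ± 70.6 CPM in males of version 3.1.0 (n = 4) and at 844 ± 99.8 CPM in females of version 3.1.0 (n = 11). The range in 3.0.2 males, 927 to 1195 CPM, lay above that of 3.1.0 males, 772 to 925 CPM. The fitted sex difference of -0.19 (SE 0.09, adjusted p = 0.274) became 0.03 with the version as a further term. What else differed between the 2 sets of libraries is not given in the sources used here, and its part in the result was not tested.

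Other genes of the pathway were read from 4 further lists. Of lists assembled with results of these data known, 29 of 30 other myelin genes, 29 of 30 myelin lipid and sterol synthesis genes, 17 of 19 oligodendrocyte transcription factors and 12 of 13 immune and stress genes were tested, and none was called in the tau, deletion and heterozygous comparisons, where 0.00796%, 0% and 0% of all genes were. With the transgene the smallest unadjusted p among other myelin genes belonged to Klk6, a secreted protease (log2 fold change 1.99, SE 0.88), and Gpm6b, a neuronal and glial membrane glycoprotein (-0.21, SE 0.09). Of the lipid genes it belonged to Cyp51 (-0.19, SE 0.14) and Fdft1 (-0.17, SE 0.15), both of cholesterol synthesis, and 8 of 29 lipid genes lay above 0. The transcription factor Zfp488 was at 1.01 (SE 0.40) and Zfp536 at 0.23 (SE 0.12). In the heterozygous comparison the smallest p-values belonged to Apod, a lipid carrier (0.48, SE 0.30), and Ndrg1 (-0.09, SE 0.08) of the myelin list, to Srebf1, a regulator of fatty acid synthesis (0.27, SE 0.14), and Ugt8a, which makes galactocerebroside (-0.22, SE 0.13), and to Id4 (-0.45, SE 0.29) and Zeb2 (-0.13, SE 0.10) of the transcription factors.

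The immune and stress genes were assembled with results of these data known, so their values are a description. Serpina3n, a secreted protease inhibitor, was at 4.30 (SE 1.29) and the complement gene C4b at 2.90 (SE 0.88) with the transgene. The list's median was 0.69, and 6 of its 12 tested genes had an unadjusted p under 0.05 where 6.43% of all 12558 genes did. On Cgas deletion Serpina3n was at -1.06 (SE 0.81) and C4b at -0.81 (SE 0.75). In the heterozygous comparison Fkbp5, a glucocorticoid-responsive chaperone, was at 1.13 (SE 0.71). Tppp, a tubulin-binding protein of myelinating cells, had the smallest unadjusted p of the other myelin genes on deletion (0.39, SE 0.12, unadjusted p = 0.00294 and adjusted p = 0.9999 by edgeR), followed by Gpm6b (0.11, SE 0.09). The lipid genes Dhcr7 (0.23, SE 0.15) and Scd2 (0.20, SE 0.13) and the transcription factors Id2 (0.45, SE 0.30) and Sox8 (0.15, SE 0.14) came first in their lists. Genes of these lists passed in the pooled tau and sex comparisons, where 0.242% and 1.81% of all genes did. Cd9, a tetraspanin, was 0.51 higher (SE 0.11, adjusted p = 0.0446 by edgeR) with P301S over all 27 mice. Version 3.0.2 holds 6 of the 9 libraries without the transgene and 6 of the 18 with it, and with the version as a further term Cd9 was at 0.47 (adjusted p = 0.0889 by edgeR). Ndrg1 (0.38, SE 0.06, adjusted p = 0.00119), Sept8, a myelin septin (0.33, SE 0.09, adjusted p = 0.0435), Scd2, a fatty acid desaturase (0.53, SE 0.10, adjusted p = 0.00547), and Srebf2, a regulator of sterol synthesis (0.30, SE 0.07, adjusted p = 0.0339), were higher in females in the edgeR fit. With the version term their estimates were 0.35, 0.29, 0.53 and 0.28 and none passed (adjusted p = 0.104, 0.379, 0.153 and 0.291 by edgeR).

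The 9 genes did not move as one unit among libraries. Over the 27 oligodendrocyte-like pseudobulks the 36 pairwise correlations of log2 CPM had a median of 0.17 and ran from -0.63 (Mobp with Opalin) to 0.77 (Cnp with Mal). Without P301S Cgas+/- replicate 6, which had the highest Mobp and lowest Opalin level, the first was -0.38 (26 libraries). Cnp with Mag stood at 0.70 and Mag with Opalin at 0.64. These libraries share software versions, sexes and genotypes, so the values describe the set only. The genes outside the list most like the mean of the 9 were Ndufs7 and Zdhhc12 (r = 0.81 each), Olig2 (0.80), Trim35 (0.78) and Stmn4 (0.76), over 27 libraries.

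The share of kept nuclei in the lineage was compared because a gene can keep its level per nucleus while the cells change in number. A share also depends on which other nuclei a library holds. Striatal projection neuron-like nuclei, for example, ran from 2 to 2011 a library. Oligodendrocyte-like nuclei made up 29.3%, 16.6%, 14.97%, 12.1% and 9.89% of kept nuclei in the Cgas+/+ libraries, ordered by size. They made up 17.4 to 31.0% (median 22.6%) in P301S Cgas+/+, 14.6 to 27.5% (22.2%) in P301S Cgas+/- and 22.7 to 29.2% (24.98%) in P301S Cgas-/- libraries. All these ranges overlapped. The difference of 6.56 percentage points with the transgene gave p = 0.130 in an exact two-sided permutation test over mice (adjusted over 6 comparisons, 0.558). It was -3.83 points between the libraries of version 3.0.2 (2 against 2) and 12.8 points between those of 3.1.0 (4 against 3), so its direction differed between the versions.

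The deletion difference in oligodendrocyte-like share was 2.49 points (p = 0.318) and the heterozygous difference -1.33 points (p = 0.669) in the same exact permutation test. Progenitor-like shares were 3.61 ± 0.369% in Cgas+/+, 3.28 ± 1.01% in P301S Cgas+/+, 2.59 ± 0.597% in P301S Cgas+/- and 3.06 ± 0.419% in P301S Cgas-/- mice (SD, n = 5, 6, 6 and 6), with adjusted exact permutation p-values of 0.558 to 0.669. Committed precursor-like nuclei made up 0.0866 to 0.253% of nuclei in Cgas+/+ libraries and 0.311 to 0.768% in P301S Cgas+/+ libraries. Those ranges did not overlap. The ranges in P301S Cgas+/- (0.178 to 0.730%) and P301S Cgas-/- libraries (0.241 to 0.838%) both overlapped that of Cgas+/+, and a Cgas+/- library without the transgene reached 0.373%. The share, carried by 9 to 93 nuclei a library, is given without a test.

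Outside the lineage most myelin genes were at a low level, which differed between classes, and Mbp and a few others stood apart. The 9 genes summed were at 0.576% of their oligodendrocyte-like level in inhibitory neuron-like, 2.32% in microglia-like and 6.34% in T cell-like nuclei. In excitatory neuron-like nuclei 7 of the 9 genes were at 0.271 to 0.531% of their oligodendrocyte-like level, whereas Mbp was at 2.15% (99.5 CPM, 63456 UMIs) and Cnp at 2.09%. The ratio of Mbp UMIs to the UMIs of the other 8 genes was 0.913 in oligodendrocyte-like nuclei. It was 4.78 in excitatory neuron-like nuclei, and between 2.66 and 10.1 in every library there, above the highest oligodendrocyte-like ratio of 1.04. In inhibitory neuron-like nuclei the ratio was 1.17, in microglia-like nuclei 0.908 and in astrocyte-like nuclei 0.386. Mbp also stood above most of the genes in choroid plexus-like nuclei, at 2.31% (1568 UMIs) where 7 others were at 0.431 to 1.89%. In striatal projection neuron-like nuclei it was at 1.45% (1748 UMIs) where 7 others were at 0.406 to 0.787%. Cnp was at 4.37% and 3.48% in these classes. Thinned to 1000 UMIs, a median of 9.33% of excitatory neuron-like nuclei had an Mbp UMI, against 3.11% of inhibitory neuron-like and 1.99% of astrocyte-like nuclei (50.1%, 18.6% and 6.70% without thinning, at median depths of 9169, 8740 and 3330 UMIs). The Mbp locus also produces golli transcripts in neurons and immune cells, and gene-level counts do not separate these from myelin transcripts.

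**Figure D4:**
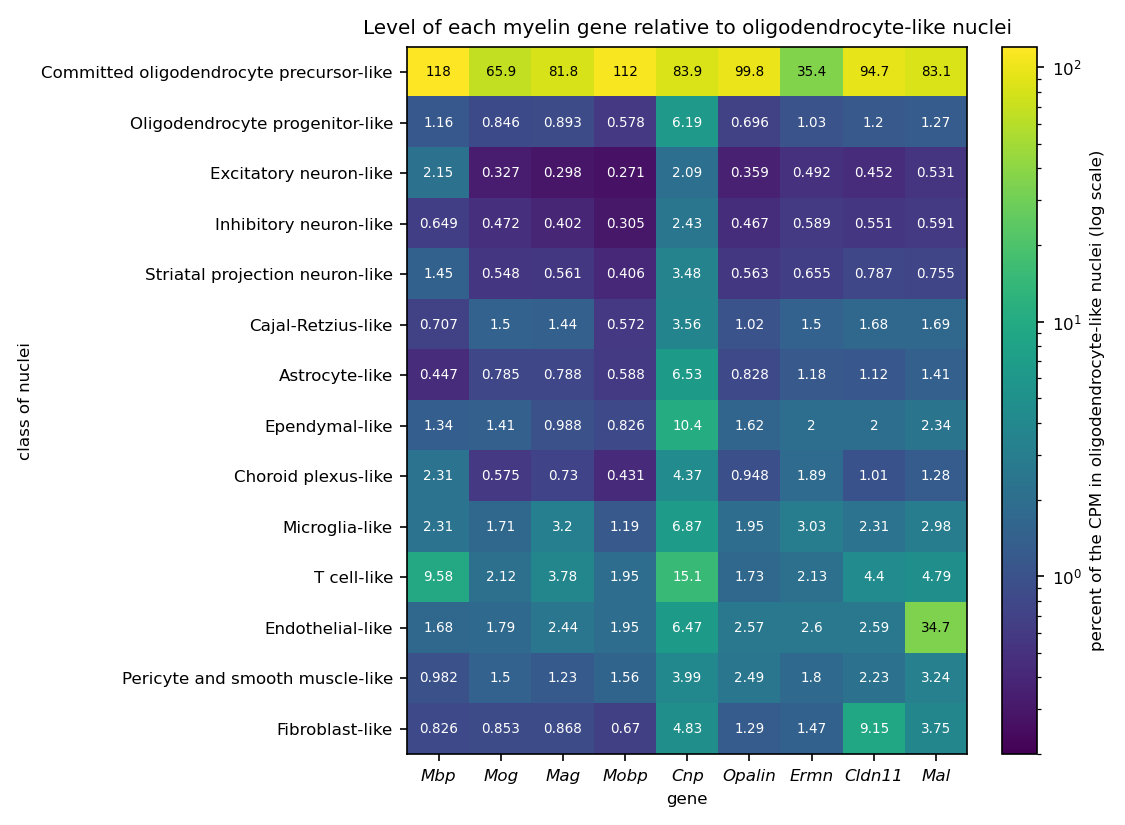
Pooled CPM of each gene in each class of nuclei as a percent of its CPM in oligodendrocyte-like nuclei (log colour scale, values printed). Mal in endothelial-like nuclei (34.7%), Cldn11 in fibroblast-like nuclei (9.15%), Mbp in T cell-like nuclei (9.58%) and Cnp in astrocyte-like (6.53%) and progenitor-like nuclei (6.19%) stand out from most of the other genes.

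Among excitatory neuron-like clusters Mbp ranged 5.87-fold while the other genes ranged 2.24-fold. Over 15 clusters Mbp had means of 35.7 to 210 CPM, and the sum of the other 8 genes had means of 14.0 to 31.3 CPM. The dentate gyrus-type cluster, in which Prox1 (a marker of dentate granule neurons) stood at 332 CPM, had 133 ± 26.6 CPM of Mbp in 27 libraries and 24.0 ± 11.0 CPM of the other 8 genes. The next largest cluster, led by 4921539H07Rik, had 63.2 ± 17.1 CPM of Mbp. All 3 inhibitory neuron-like clusters lay at 23.9 to 33.3 CPM, below every excitatory mean. Clusters share libraries, and no test was run between them.

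**Figure D5:**
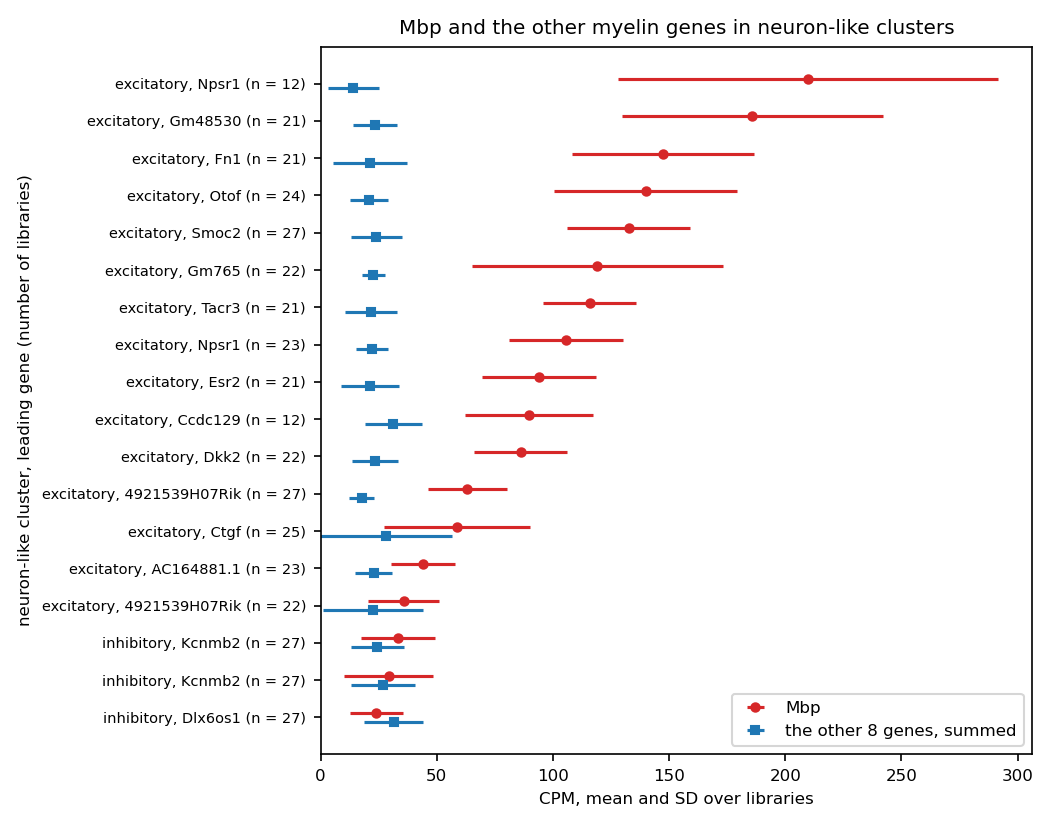
Mean CPM and SD over libraries of Mbp (red) and of the other 8 myelin genes summed (blue) in 15 excitatory and 3 inhibitory neuron-like clusters, ordered by Mbp, each labelled by its leading gene (some clusters share one). Mbp falls from 210 to 23.9 CPM down the plot while the blue points stay between 14.0 and 31.4 CPM.

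Other classes had their own exceptions. In endothelial-like nuclei Mal was at 141 CPM (249 UMIs), 34.7% of the oligodendrocyte-like level, where the other 8 genes were at 1.68 to 6.47%. It was seen in every one of 24 libraries with enough nuclei, at 26.95 to 308 CPM. In fibroblast-like nuclei Cldn11 was at 53.8 CPM (145 UMIs), 9.15% of the oligodendrocyte-like level, with the others at 0.670 to 4.83%. In T cell-like nuclei Mbp was at 443 CPM (137 UMIs), 9.58% of the oligodendrocyte-like level and 271 to 676 CPM in 11 libraries. Cnp was higher there in percent (15.1%, but 9 UMIs), and the other 7 genes were at 1.73 to 4.79%. Cnp was also the highest of the 9 genes in percent in astrocyte-like (6.53%), progenitor-like (6.19%), microglia-like (6.87%), ependymal-like (10.4%), inhibitory neuron-like (2.43%) and striatal projection neuron-like nuclei (3.48%), and in 3 smaller classes at 3.56 to 4.37%.

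Whether the level outside the lineage followed the share of oligodendrocyte-like nuclei was asked over the 27 mice. In excitatory neuron-like nuclei the sum of all 9 genes did not pass (Pearson r = 0.26 and Spearman rho = 0.31 with the oligodendrocyte-like share, p = 0.196 and 0.120 by permutation). Mbp alone had r = 0.07 (rho 0.12, p = 0.746 and 0.563). The 8 genes without Mbp had r = 0.55 (rho 0.66, p = 0.00300 and 0.00029, adjusted over 4 classes 0.00400 and 0.00058). That relation was 0.43 without the 2 Cgas+/+ mice farthest from the median share, 0.67 within version 3.0.2 (n = 12) and 0.46 within 3.1.0 (n = 15, p = 0.0816).

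The sum of the 9 genes followed the share in microglia-like nuclei (r = 0.72, rho 0.72, permutation p = 8e-05 and 6e-05, adjusted 0.00032 and 0.00024), with 0.64 without the same 2 mice and 0.72 and 0.74 within the versions. In astrocyte-like nuclei r was 0.56 (rho 0.57, p = 0.00244 and 0.00207, adjusted 0.00488 and 0.00276), 0.56 without the 2 mice, and 0.69 and 0.47 within versions, the second with p = 0.0813. In inhibitory neuron-like nuclei r was 0.48 (rho 0.59, p = 0.0107 and 0.00141, adjusted 0.0143 and 0.00276). Without the 2 mice r was 0.39 and no longer passed (permutation p = 0.0519), and within versions it was 0.47 and 0.42 (permutation p = 0.121 and 0.114).

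The genotype groups differ in mean share, so the relations were also computed with each group's mean subtracted and shares permuted within groups, a choice made after seeing the data. For the sum of the 9 genes r was then 0.56 in microglia-like (permutation p = 0.0141, adjusted over 4 classes 0.0565), 0.45 in astrocyte-like (p = 0.0371, adjusted 0.0743), 0.28 in inhibitory neuron-like (p = 0.240) and 0.20 in excitatory neuron-like nuclei (p = 0.353). None passed after adjustment. Without Mbp the relation passed in microglia-like (r = 0.61, adjusted permutation p = 0.0147) and astrocyte-like nuclei (0.52, adjusted 0.0249), and not in inhibitory (0.31) or excitatory neuron-like nuclei (0.35, adjusted 0.181 each).

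Levels outside mature oligodendrocytes were also compared between genotypes, and 0 of the 9 genes passed by edgeR or DESeq2 in any of 6 classes and 3 comparisons. The share of all genes called in the tau comparison was 0.0238% in excitatory neuron-like, 0.00793% in inhibitory neuron-like, 0.00757% in astrocyte-like and 0.034% in progenitor-like nuclei, and 0% in microglia-like and committed precursor-like nuclei. In the deletion and heterozygous comparisons it was 0.0159% in inhibitory neuron-like nuclei and 0% in the other 5 classes. The count passing the filter on low values was 9 in excitatory neuron-like, astrocyte-like and committed precursor-like nuclei, 8 in inhibitory neuron-like, 7 in microglia-like and 5 in progenitor-like nuclei. The committed precursor-like fit used 22 mice, since 1 Cgas+/+ library held under 10 such nuclei.

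With the transgene the estimates outside mature oligodendrocytes lay mostly above 0. In excitatory neuron-like nuclei 8 of 9 did, with a median of 0.63 and 4 unadjusted p-values under 0.05, where 2.50% of all genes had one. Cldn11 there was at 1.36, 3.39, 1.63, 0.869 and 1.66 CPM in Cgas+/+ libraries and at 1.87 to 5.91 CPM (median 3.93 CPM) in P301S Cgas+/+ libraries. The ranges overlapped through 1 Cgas+/+ library, and the fitted difference was 1.15 (SE 0.32, unadjusted p = 0.00176, adjusted p = 0.9996 by edgeR). Mbp in the same nuclei was at 86.1, 88.7, 134, 114 and 107 CPM in Cgas+/+ and at 77.5 to 115 CPM (median 103 CPM) in P301S Cgas+/+ libraries, a difference of -0.07.

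In inhibitory neuron-like nuclei 8 of 8 tested genes had tau estimates above 0 (median 0.87, 5 unadjusted), in astrocyte-like nuclei 8 of 9 (0.50, 1 unadjusted), in microglia-like nuclei 7 of 7 (0.39, 1 unadjusted) and in progenitor-like nuclei 5 of 5 (0.74, 2 unadjusted). The share of all genes with an unadjusted p under 0.05 was 2.62%, 11.7%, 15.6% and 6.56% in these 4 classes. Over all genes the medians of these 5 classes lay between -0.01 and 0.0006. In inhibitory neuron-like nuclei P301S Cgas+/+ replicate 3 held 106 CPM of the 9 genes summed. The next highest library, P301S Cgas-/- replicate 4, held 80.4 CPM. The inhibitory neuron-like fit was not repeated without replicate 3. In the heterozygous comparison every tested gene had an estimate below 0 in excitatory, inhibitory, astrocyte-like and microglia-like nuclei, with medians of -0.42, -0.45, -0.34 and -0.22, against 4 of 5 in progenitor-like (-0.25) and 4 of 9 in committed precursor-like nuclei (0.01). In the deletion comparison 2 of 9 estimates lay above 0 in excitatory (median -0.14), 1 of 8 in inhibitory (-0.22), 3 of 9 in astrocyte-like (-0.08), 5 of 7 in microglia-like (0.06) and 1 of 5 in progenitor-like nuclei (-0.08). The tau, heterozygous and deletion comparisons share the P301S Cgas+/+ libraries, and genes and classes come from the same mice. The signs are therefore not independent. The oligodendrocyte-like share of a library differed by 6.56 points in the tau, -1.33 points in the heterozygous and 2.49 points in the deletion comparison, and the last was -0.521 points as a share of named classes only. The part of the share in these estimates was not tested. In committed precursor-like nuclei 7 of 9 tau estimates (median 0.06) and 9 of 9 deletion estimates (median 0.24) lay above 0, the largest being Ermn on deletion at 0.71 (SE 0.30, unadjusted p = 0.0264, adjusted p = 0.9998 by edgeR). This class sums the Bmp4 and Ctps subclusters, whose myelin gene levels differ. They held 33 and 32 nuclei in Cgas+/+, 126 and 167 in P301S Cgas+/+ and 96 and 183 in P301S Cgas-/- libraries. The part of that mix in the committed precursor-like estimates was not tested.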

How the data were processed

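Whole-number UMI count matrices were deposited, 1 a mouse (27). The authors made these counts with Cell Ranger on mm10, counting reads in introns as well, and called cells at its default setting. Their processing notes name version 3.1.0 and Seurat 3.0. The file headers give Cell Ranger 3.0.2 for 12 libraries (all male) and 3.1.0 for 15. Annotation release: not given in the sources used here, and 30934 of 31053 gene IDs matched the GRCm38 annotation used for positions.

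Barcodes outside 200 to 4000 genes or above 5% mitochondrial UMIs were dropped, as were 16429 called doublets (0.8% per 1000 barcodes), which left 204852 of 241938 barcodes. Libraries held 46091490 to 79484316 UMIs. Nuclei were clustered without the 9 myelin genes (scanpy 1.11.5, 2000 variable genes, 30 components, 15 neighbours, Leiden resolution 1), and clusters were named from at least 3 markers. Counts were summed per mouse and class. edgeR 4.0.16 (TMM, filterByExpr, robust quasi-likelihood test) was the main test, with an adjusted p threshold of 0.05, and DESeq2 1.42.0 and limma 3.58.1 were alternatives. Correlations across mice used 100000 resamples. The fit was tested on simulated counts for the tau comparison in oligodendrocyte-like nuclei, with changes given to genes above the median level. It recovered 99% of log2 changes of 1 and 100% of those of 2, and 3.86% of its calls were false. The simulated counts had the spread typical of a gene's level, without each gene's own spread or a difference between software versions. Recovery in the real counts can be lower. Serpina3n, at 4.30 in the real tau comparison, was not called. Members, lists and tests were chosen with earlier results of these data known. Named pathway genes are, for each list, those called in the tau, deletion or heterozygous comparison, or otherwise the 2 of smallest p in it. Those called in the pooled tau and sex comparisons were added after their values were seen. A gene that this rule names is not reported here.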

Additional observations from a re-analysis of the deposited data

Results flagged for a closer look

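Of 36 combinations of gene and group of 5 or 6 oligodendrocyte-like libraries tested for a single distant library, 5 stood out by the gap to the nearest other library relative to the group's range. None of 8 groups of oligodendrocyte-like or progenitor-like shares did. Chance marks about 1 in 20 such groups. Mbp was lowest, at 3693 CPM, in P301S Cgas+/+ replicate 1, where the next library had 4600 CPM. Mag was highest, at 1504 CPM, in P301S Cgas+/+ replicate 3, above 1152 CPM in the next. Mobp stood at 2180 CPM in P301S Cgas+/- replicate 6, above 1512 CPM, and that library also had the lowest Opalin level of all 27. Opalin was at 495 CPM in P301S Cgas-/- replicate 4, above 384 CPM, and Cldn11 at 687 CPM in P301S Cgas+/- replicate 3, above 615 CPM.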

How the results depend on the processing

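Counts of 0 members called in the tau, deletion and heterozygous comparisons and in the interaction stayed at 0 under every alternative run, DESeq2, other scalings, other filters and each mouse left out included. When all lineage nuclei were summed, 2 members were called in the pooled tau comparison, Cldn11 (0.45) and Ermn (0.38), while calls over all genes went from 31 to 1068. That sum mixes stages, so it also carries their shares. In the same sum the tau estimates of Cnp, Mal and Mog reversed to 0.0191, 0.0459 and 0.0646, and the deletion estimate of Mobp to 0.0110. With the software version as a term, chosen after seeing the data, the sex estimate of Mog reversed to 0.0317. Leaving out 1 mouse at a time, members called between the sexes ran from 0 to 1: Mal without P301S Cgas+/+ replicate 5 or P301S Cgas-/- replicate 1, Cnp without P301S Cgas-/- replicate 6. Over the same omissions tau estimates ran from -0.0379 to 0.0995 for Mag (below 0 without P301S Cgas+/+ replicate 3), -0.0414 to 0.140 for Mobp (without replicate 2) and -0.0243 to 0.145 for Opalin (without replicate 3). Deletion estimates ran from -0.0354 to 0.113 for Ermn, -0.134 to 0.0494 for Mobp and -0.0380 to 0.142 for Opalin, and the heterozygous estimate of Opalin from -0.210 to 0.0120 (above 0 without P301S Cgas+/- replicate 6).

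The oligodendrocyte-like share difference on deletion reversed to -0.521 points as a share of named classes only. Leaving out mice, the heterozygous difference ran from -2.46 to 0.249 points, the progenitor-like deletion difference from -0.573 to 0.0215 and the progenitor-like tau difference from -0.578 to 0.0170. The relation in excitatory neuron-like nuclei rose from r = 0.26 to 0.55 without Mbp, and that in inhibitory neuron-like nuclei fell to 0.39 without 2 mice. With group means subtracted, chosen after seeing the data, r was 0.448 in astrocyte-like, 0.276 in inhibitory neuron-like and 0.565 in microglia-like nuclei and no longer passed. The cause of the other changes was not tested. Calls over all genes in the tau comparison were 1 (9 with DESeq2, 0 to 1 leaving out mice). The pooled tau count of 31 was 196 with DESeq2, 1 with the version term and 1 to 47 leaving out mice, and the sex count of 227 was 22 with the version term and 111 to 449 leaving out mice. Among 27 fold changes of members, 748 of 769 recomputed values kept their direction and their side of the threshold.

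No paired analysis was possible because replicate numbers follow accession order and link no mice across groups. How small a change can be detected depends on the widths of the intervals and on the adjustment over all genes tested. Recovery of changes smaller than those simulated, or in genes that vary more than simulated, was not tested. The 2-mouse groups add little precision. DESeq2 in the other classes and inclusion of an unnamed lineage subcluster of 1710 nuclei were also chosen after seeing the data and changed no call.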
